A study of Mus musculus with 4 samples.

Results

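The surfactant and alveolar type II genes examined here are 10 genes chosen by name, and 8 of them had a value among the 17906 genes with one. Sftpc, Sftpb and Sftpa1 encode surfactant proteins, Abca3 and Napsa encode proteins of the lamellar body and of surfactant processing, and Nkx2-1, Cebpa and Etv5 encode transcription factors of the type II cell. Sftpd, which encodes surfactant protein D, and Lamp3, which encodes a lamellar body membrane protein, had no value among those used here. No level is therefore given for them, and the lack of a value is not read as absence of the transcript. The cells were MLE12, a mouse lung epithelial line derived from lung tumors of transgenic mice in which the human SFTPC promoter drove a simian virus large T antigen. RNA-seq was done on 2 control libraries and 2 lamin B1 knockdown (KD) libraries, all from cells kept in puromycin at 2 µg/ml. The stable KD lines of the study were made with lentiviral shRNA against lamin B1, and which hairpin these libraries carried is not stated. All values describe this one immortalized line.

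Type II cells line the alveolus together with flat type I cells, and they make pulmonary surfactant, a film of phospholipid and protein that lowers surface tension. Surfactant lipid and the hydrophobic proteins B and C are packed into lamellar bodies, lysosome-related organelles that are released into the airspace, whereas the collectins A and D bind microbes and take part in immune defense. The homeodomain factor NKX2-1, together with C/EBPα and with ETS factors downstream of FGF signaling, drives the transcription of these genes in the lung.

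The deposited table gives 1 mean normalized count per gene over all 4 libraries, and this mean is the level reported below. Control and KD libraries are merged in it, so no level of a single group and no change upon lamin B1 KD is given here. Sequencing depth is reflected in the sum of the levels, which is 2.24042e+07 normalized counts, and the size factors recovered from the lowest values ran from 0.934 to 1.07. The median gene stood at 122 normalized counts per kb of its longest transcript among 16429 annotated genes with a level of at least 2, with quartiles of 13.4 and 440. These genes are called background genes here, and levels of different genes are compared only per kb. Fewer cells that make a transcript and less transcript per cell cannot be told apart in these bulk samples.

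Transcripts of 6 of the 8 genes stood above the median background gene per kb, and Napsa and Sftpa1 stood far below it. The median over the 8 genes was 380 normalized counts per kb. A level of at least 2 was reached by 7 of the 8, against 92.8% of all genes with a value, and the same 7 reached a level of 10, against 75.1%. The share of members past the lower minimum is thus near that of all genes. Of the 17683 genes with an annotated length, 46.5% stood at or above the median background gene. Sftpb was highest and Sftpa1 lowest.

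**Figure D1:**
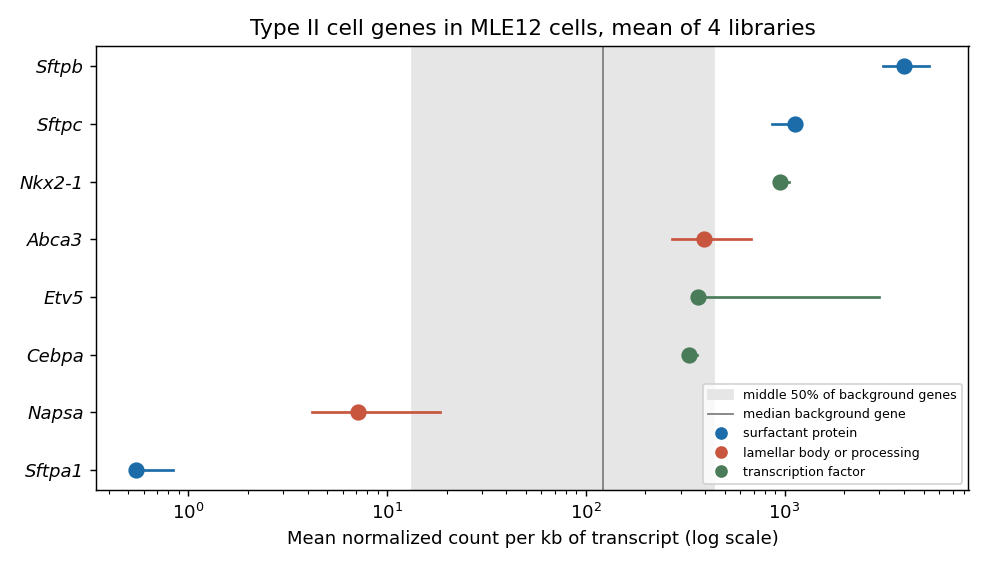
Level of each gene per kb of transcript on a log axis, as the mean of 4 libraries; points use the longest transcript and lines span the values with the exon union and the median transcript length. Sftpb, Sftpc and Nkx2-1 lie above the band of the middle background genes, which ends at 440, and Napsa at 7.18 and Sftpa1 at 0.55 lie below its lower end of 13.4.

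Among the surfactant protein genes, transcripts of the hydrophobic proteins B and C were abundant, and that of the collectin A was close to the detection limit. Sftpb encodes surfactant protein B, which is needed to form lamellar bodies and the surface film. It had a mean level of 6189 normalized counts, or 3996 per kb, above 98.3% of background genes. Sftpc encodes surfactant protein C, a small palmitoylated membrane peptide made by type II cells. Its mean level was 893, or 1127 per kb, above 90.5% of background genes. Sftpb stood 3.54-fold above Sftpc per kb. Sftpa1 encodes surfactant protein A and had a mean level of 1.57, or 0.55 per kb, and 0.627% of background genes lay below it. Its level is itself under the minimum of 2 for background genes. Among all genes with a value and a length, 2.29% lay below it per kb. Only 6 reads in all libraries together lie behind the level of Sftpa1 (95% exact Poisson interval 2.20 to 13.1 reads, counting error only). In GRCm38, Sftpb lies on the plus strand of chromosome 6 from 72304610 to 72314371. Sftpc lies at 70520949 to 70524081 of chromosome 14 (minus strand), and Sftpa1 is on the same chromosome at 41131782 to 41136452 (plus strand). None of these 3 genes shares exon bases with another gene of the annotation.

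The promoters of Sftpb and Sftpa1 are shown because both hold NKX2-1 core letters although their transcripts stood at opposite ends of the range. Each run is the 250 bases before the RefSeq start of the gene in GRCm38.p6, 5′ to 3′ on the plus strand, at chr6:72304360-72304609 for Sftpb and chr14:41131538-41131787 for Sftpa1. The RefSeq start of Sftpa1 lies a few bases inside the GENCODE gene, whose first base is 41131782. Capitals mark CTCAAG and CAAGTG, core letters bound by NKX2-1, searched on both strands (CAAGTG reads CACTTG on the other strand), and no matches overlap in these windows.
Sftpb: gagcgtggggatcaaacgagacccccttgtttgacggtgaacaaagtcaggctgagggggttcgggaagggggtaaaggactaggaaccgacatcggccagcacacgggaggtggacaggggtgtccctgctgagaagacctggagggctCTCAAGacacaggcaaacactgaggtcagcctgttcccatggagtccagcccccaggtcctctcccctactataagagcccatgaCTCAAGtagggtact
Sftpa1: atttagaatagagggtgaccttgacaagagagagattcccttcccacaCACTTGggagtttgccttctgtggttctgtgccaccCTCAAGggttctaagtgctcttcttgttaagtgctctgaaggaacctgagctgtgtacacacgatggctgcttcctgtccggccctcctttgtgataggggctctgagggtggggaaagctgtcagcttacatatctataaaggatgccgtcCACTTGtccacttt
The Sftpb window holds CTCAAG at -100 and at -15 from the start. The Sftpa1 window holds CACTTG at -202 and -14 and CTCAAG at -166. In windows of 300 bases, reaching 50 bases past the start, at least 1 of these cores was present in 2 of the 7 members with a RefSeq window (Sftpb, Sftpa1, Abca3, Lamp3, Nkx2-1, Cebpa and Etv5), and in 26.4% of all 32851 windows. The share among the members is thus near the background. Within the same windows TATAAA was found at -30 in Sftpa1 and Cebpa, against 13.6% of all windows. TTGCNNAA, C/EBP letters found in 10.8% of windows, and CCGGAAGT, an ETS motif found in 3.89%, had no match in any member. A match of letters is a description, and no match says only that these letters are not in the window.

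Of the genes for lamellar bodies and processing, the lipid transporter was well expressed and the aspartic protease was scarce. Abca3 encodes the ATP-binding cassette transporter that loads phospholipid into lamellar bodies. It had a mean level of 2546, or 393 per kb, above 72.6% of background genes. Napsa encodes napsin A, an aspartic protease that takes part in the cleavage of the surfactant protein B precursor. It had a mean level of 11.2, or 7.18 per kb, above 18.6% of background genes, and 45 reads lie behind it (95% exact Poisson interval 32.8 to 60.2 reads). Abca3 therefore stood 54.7-fold above Napsa per kb. All 4 other genes of precursor processing and sorting had a level of at least 2, as did 92.8% of all genes with a value. Emc3, a subunit of the membrane insertion complex of the endoplasmic reticulum, stood at 2761 per kb. Ctsh, the cysteine protease cathepsin H, stood at 356, the palmitoyltransferase gene Zdhhc2 at 198 and the ubiquitin ligase gene Nedd4l at 86.0 per kb. Abca3 lies on the plus strand of chromosome 17 from 24351950 to 24410201 of GRCm38 and shares 914 exon bases with D330041H03Rik on the other strand. Napsa lies on the plus strand of chromosome 7 from 44572380 to 44586862 and shares 502 exon bases with the antisense gene Gm15396. The sources do not say whether counting used strand, so reads of these partners cannot be told apart.

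All 3 transcription factor genes stood above the median background gene, with Nkx2-1 the highest per kb of the longest transcript or of the exon union and Etv5 the highest with the median transcript length. Nkx2-1 encodes the homeodomain factor that is the earliest marker of the lung epithelium. It had a mean level of 2667, or 949 per kb, above 88.4% of background genes. Etv5, an ETS factor induced by FGF signaling, had a mean level of 1461, or 368 per kb, above 71.2%. Cebpa, the leucine zipper factor of epithelial maturation, had a mean level of 866, or 330 per kb, above 69.1%. Per kb of the longest transcript Nkx2-1 stood 2.88-fold above Cebpa and 2.58-fold above Etv5. With the exon union Nkx2-1 also stood above Etv5, at 938 against 356 per kb. The direction turned with the median transcript length, where Nkx2-1 stood at 1056 and Etv5 at 2989 per kb. For Etv5 this median is 489 nt, against 3975 nt for its longest transcript. Since the order depends on the length used, this pair is not ranked by the data. In GRCm38, Nkx2-1 lies at 56531958 to 56536908 of chromosome 12 and Etv5 at 22381309 to 22439719 of chromosome 16, both on the minus strand. Cebpa lies on the plus strand of chromosome 7 from 35119293 to 35121928 and shares 51 exon bases with the antisense gene Gm45091.

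Some steps in this order are small. Abca3, Etv5 and Cebpa lay within 1.19-fold of each other per kb of the longest transcript, and Sftpc stood 1.19-fold above Nkx2-1. With the union of exons as the length, Nkx2-1 at 938 per kb stood above Sftpc at 863, so the data do not rank this pair. With the median transcript length Etv5 also stood above Sftpc, which was at 1201 per kb. Abca3 at 272 per kb stood below Etv5 at 356 and Cebpa at 328 with the exon union. With the median transcript length Abca3 stood at 677, Etv5 at 2989 and Cebpa at 362 per kb. The data thus do not rank Abca3 against Etv5 or Cebpa. Sftpb remained the highest, Napsa the second lowest and Sftpa1 the lowest with each of the 3 lengths. Counting error was at most 1.76% for the 6 genes of higher level, and their spread between libraries is not known. For likeness in level, the 2 genes of the other lists nearest to each member per kb were taken over the pooled mean. Nearest to Sftpb were Cav1 at 1.06 times its level and Emp2 at 0.841 times, and nearest to Nkx2-1 were Srebf1 at 0.992 and Ager at 0.984 times.

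The levels of genes with roles beside those of the members are given as a description. Every one of them with a value had a level of at least 2, as did 92.8% of all genes, and the counts at or above the median background gene stand beside 46.5% of all genes with a length. In surfactant lipid synthesis all 11 genes had a level of at least 2 and 10 stood at or above the median background gene, with a list median of 414 per kb. Scd1, a fatty acid desaturase, stood at 2095 per kb, the lipogenic regulator Srebf1 at 942, the fatty acid synthase gene Fasn at 785, and Lpcat1, which remodels phosphatidylcholine for surfactant, at 762. In lamellar body biogenesis and surfactant turnover 7 of 9 genes had a value, 5 of them at or above the median background gene. Ap3b1, an adaptor subunit, and Rab38, a small GTPase of lysosome-related organelles, stood at 833 and 391 per kb. Among 15 lung epithelial transcription factor genes 13 had a value and 8 stood at or above the median background gene. The Hippo pathway genes Wwtr1, Yap1 and Tead1 stood at 895, 689 and 499 per kb and Gata6, a zinc finger factor of lung development, at 813. The 5 factor genes below the median background gene stood between 4.82 and 72.9 per kb. In the FGF pathway around Etv5 all 9 genes had a value, with 6 at or above the median background gene. The ERK phosphatase gene Dusp6 stood at 2030 per kb and the feedback inhibitors Spry2 and Spred1 at 1840 and 685. Etv4, the close relative of Etv5, stood at 661. Below the median background gene were the receptor genes Fgfr2 and Fgfr1, at 42.5 and 1.01 per kb, and Spry4 at 18.4.

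Defining markers of the type II cell were partly low, whereas most type I markers stood above the median background gene. Apart from the members, 6 of 10 type II markers had a value, with a median of 7.90 per kb, and 1 of them stood at or above the median background gene. Dram1, a lysosomal membrane gene, stood at 146 per kb. Cxcl15, a lung chemokine, stood at 18.2 per kb, Lyz2, lysozyme, at 11.2 and Muc1, a membrane mucin, at 4.60. All 12 type I markers had a value, with a median of 734 per kb, and 9 stood at or above the median background gene. Cav1, the main coat protein of caveolae, stood at 4224 per kb, the membrane protein gene Emp2 at 3359, the water channel gene Aqp5 at 3183 and Vegfa, a vascular growth factor, at 2663. Transcripts of Sftpb and Sftpc were thus found in the same RNA as abundant transcripts of several type I genes. Whether single cells hold both was not measured. General markers of the labelled cell type, lung epithelial cells, differed widely in level. Of 9 general epithelial markers 8 had a value and 4 stood at or above the median background gene. That share is near the 46.5% of all genes with a length. The keratin genes Krt19 and Krt8 stood at 20111 and 4865 per kb, the claudin gene Cldn3 at 547 and Cdh1, E-cadherin, at 330. The other 4 stood between 1.83 and 37.9 per kb, with the epithelial adhesion gene Epcam the highest of them.

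Markers of other cell types mostly stood below the median background gene, with Uchl1 and Dcn above it. Club cell markers had values for 4 of 6 genes, with Muc5b highest at 38.9 per kb and Scgb1a1, the defining secretoglobin, at 11.7. Values of 2.63 to 67.8 per kb were found for 3 of 6 ciliated markers, and of 3.56 to 87.1 for 4 of 5 basal markers, where Krt14 was highest. Among neuroendocrine markers Uchl1, a ubiquitin hydrolase, stood at 610 per kb and Syp at 1.04, with no value used for the other 4. Kdr and Pecam1, the endothelial markers with a value, stood at 2.48 and 1.95 per kb, and Cd68, the immune marker with a value, at 41.8. Of 6 fibroblast markers Dcn, a matrix proteoglycan, stood at 2612 per kb, while the collagen gene Col1a1 stood at 22.0 and Col3a1 at 0.251. The gastrointestinal genes Lgals4 and Hnf4a stood at 14.6 and 1.29 per kb, and the thyroid gene Tg, another known target of NKX2-1, at 22.1. The part of other cell types in the levels of the members was not tested.

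**Figure D2:**
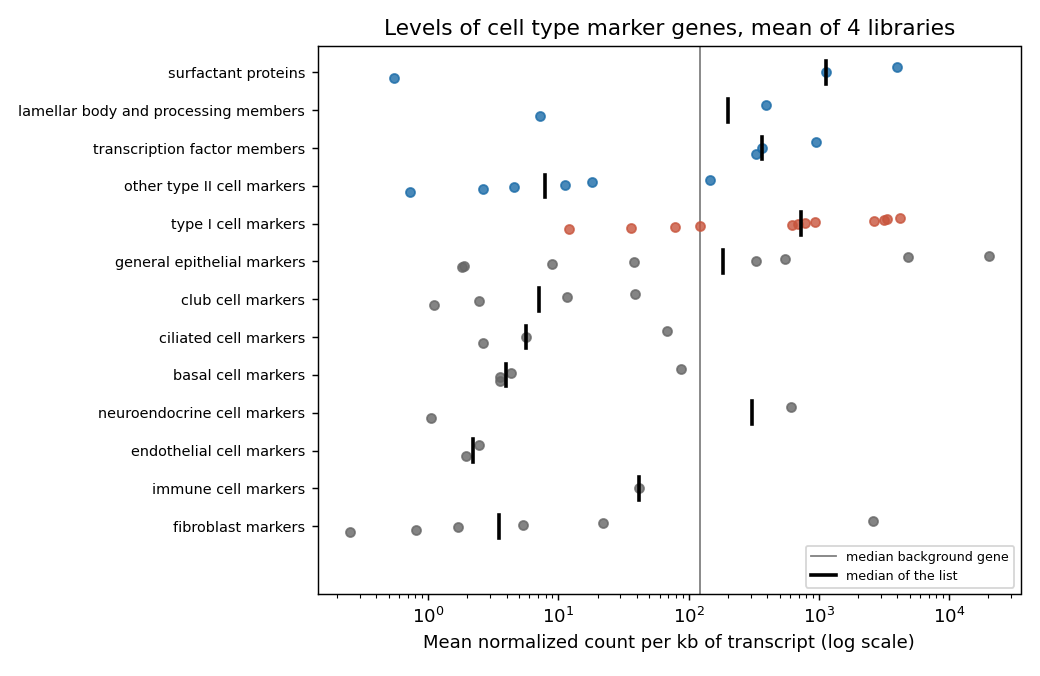
Level per kb of transcript on a log axis for each marker gene with a value, by list, as the mean of 4 libraries; blue points are type II genes, red points type I genes, gray points other lists, black bars list medians. Type I markers have a median of 734 per kb and the type II markers outside the members one of 7.90, and the fibroblast gene Dcn lies apart from its list at 2612.

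Reads per library could be recovered for genes of low level, which include Sftpa1 and Napsa. The lowest listed means take 56 distinct values, all the sums that 5 reads spread over 4 libraries of different size factor can give. This fixed the size factors, and whole reads per library followed for 6923 of the 6926 genes with a level under 60. The libraries are named A to D by falling size factor, and which of them were control and which KD is not known from the table. Sftpa1 had 0, 1, 1 and 4 reads in libraries A, B, C and D. Its median over libraries was 0.999 normalized counts, with a range from 0 to 4.28, so its presence rests on few reads, most of them in library D. Without library D its mean level was 0.666 in place of 1.57. Napsa had 15, 9, 8 and 13 reads, which gave 13.96, 8.53, 8.40 and 13.9 normalized counts. It was thus found in each of the 4 libraries, and leaving out any one kept its mean between 10.3 and 12.1. For Cebpa and Sftpc the digits of the mean allow 47 and 51 combinations of reads, so no value per library is given for them or for the more abundant members.

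Values per library were also recovered for other type II markers of low level, and whether they differ beyond counting error was not tested. Muc1, Egfl6 and Mlc1 rest on 42, 29 and 8 reads in all. Cxcl15 had 59.6, 45.5, 24.1 and 25.7 normalized counts in libraries A to D, and Lyz2 had 5.58, 6.64, 20.99 and 25.7. Library A was thus the highest for Cxcl15 and the lowest for Lyz2. Muc1 ranged from 5.25 to 14.9 and Egfl6, an EGF-like secreted protein gene, from 4.28 to 9.31. Mlc1 ranged from 0 to 5.25. No difference between groups can be read from these values, since the group of each library is not known.

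**Figure D3:**
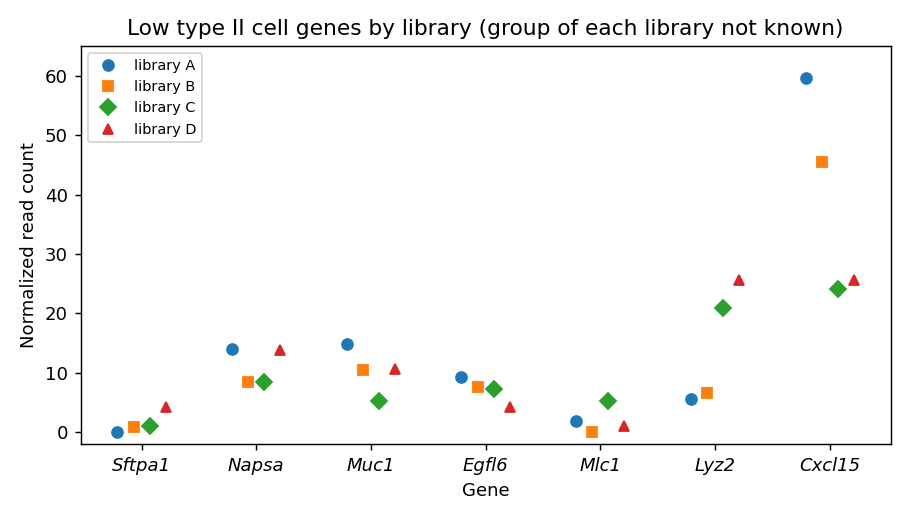
Normalized read count in each of the 4 recovered libraries for type II genes with a mean level under 60; each marker shape is 1 library, named A to D by falling size factor. Napsa lies between 8.40 and 13.96 in all libraries, Sftpa1 between 0 and 4.28, Cxcl15 between 24.1 and 59.6 and Lyz2 between 5.58 and 25.7.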

How the data were processed

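Libraries of polyA RNA (1 µg of input RNA per sample, 2 control and 2 lamin B1 KD) were sequenced on Ion Torrent. Trimming with Reaper, alignment to mm10 with STAR and normalization with DESeq2 were done by the authors. Tool versions, the counting program and any strand option are not stated. The deposited level, used here as a signal, is the authors' mean over 4 libraries of counts after division by size factors. A further 3 columns with their own comparison of KD and control (change, p and adjusted p) were not used. No labelled value per library was used, so the planned test of KD against control was not run. Whether replicates came from separate cultures is not stated.

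Of 18018 rows, 17906 had a value and 17683 of these matched GENCODE M21 (GRCm38, the assembly of mm10) by identifier. Levels were divided by the longest annotated transcript. Size factors were fitted to the lowest means, and reads per library were found by a search over whole numbers with Python 3.11.15, numpy 2.4.6, scipy 1.17.1 and pandas 2.3.3. The search was tested on simulated data. The minimum level of 2 follows the study. The members and gene lists were chosen with earlier results of these data known. Named genes are the members and, in each list, up to 4 genes of highest level per kb and up to 2 with a level under 2 or with no value, and for each member the 2 listed genes nearest in level per kb. Egfl6, Epcam, Fgfr1, Fgfr2, Spry4 and the keratin pair of the closing section were chosen after their values were seen. Promoter sequences are from RefSeq (GRCm38.p6). Protein sequences were not used here. Alternatives were other transcript lengths, backgrounds, minimum levels and promoter windows and leaving out each library.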

Additional observations from a re-analysis of the deposited data

How the results depend on the processing

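No paired analysis was possible because the values used merge both groups in 1 mean and the recovered libraries carry neither group nor replicate number. Of 16 levels per kb under another transcript length, 5 moved by over 1.5 times: Abca3 (677), Etv5 (2989), Napsa (18.6) and Sftpa1 (0.848) with the median transcript length, and Napsa (4.21) with the exon union. All 7 members past a level of 2 also passed 10, and 8 had a level of at least 1. None of 16 percentiles moved by 10 points under the other backgrounds. All of these percentiles used the longest transcript, and they were not recomputed with the other lengths. At a minimum of 10, 5 of 21 list counts moved by over 1.5 times: 1 club, 1 neuroendocrine, 1 endothelial, 3 fibroblast and 1 gastrointestinal gene passed it. Leaving out 1 library kept Napsa between 10.3 and 12.1 and Sftpa1 between 0.666 and 2.09. In the 100 bases before the start, Sftpb held 2 NKX2-1 cores and Sftpa1 1 in place of 3. Counts scaled to the total of recovered reads and the alternatives to the test of KD against control were not run, since reads of abundant genes were not recovered. Depth limits Sftpa1 most, with 6 reads in all.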

Other observations

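Krt8 and Krt18 encode the partner keratins of simple epithelia. Krt8 stood at 4865 normalized counts per kb and Krt18 at 8.96 per kb, and the recovered values of Krt18 were 10.2, 8.53, 23.1 and 9.64 normalized counts in libraries A to D. Krt19, another keratin gene of the general epithelial list, stood at 20111 per kb. The pair of Krt8 and Krt18 was singled out after its values were seen.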
